A study of Sus scrofa with 10 samples.

Results

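The proteasome subunits and assembly factors are 41 of the 6765 genes that could be named on the array. They were chosen by gene symbol: every PSMA to PSMG subunit or factor with a number, plus POMP and PAAF1, on probe sets annotated with a single gene and not serving as array controls. Each gene was read from its brightest probe set, judged by the mean log2 signal of the 10 arrays, and 5 genes had more than 1. That mean chose the probe set of each gene, and the group of genes was picked with earlier results of these data known. Every member lay above background on every array, so no filter on level removed one. The 41 genes comprise 7 alpha and 7 beta subunits of the core ring, 2 inducible beta subunits, 5 ATPases and 3 other subunits of the base, and 7 lid subunits. The remaining 10 are 4 activators with 1 inhibitor, 2 core assembly factors and 3 base assembly factors. PSMA8, PSMB9, PSMB11, PSMC4, PSMD7, PSMD9, PSMG2, PSMG4 and POMP were not analysed here.

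The proteasome is the barrel-shaped protease that degrades proteins tagged with ubiquitin. Alpha and beta subunits form its core particle, with the proteolytic sites on the inner beta rings. A regulatory particle caps the core: the ATPase ring of its base unfolds the substrate and feeds it into the core, while the lid removes ubiquitin. Dedicated chaperones assist the assembly of the alpha ring and of the ATPase ring. Nearly all cells, cultured fibroblasts included, express these genes.

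Fibroblasts of fetal tissue without the head, from Danish Landrace/Yorkshire x Duroc crosses at embryonic day 24, were grown on gelatin in serum-containing medium and divided with magnetic beads against SSEA-1. SSEA-1 is the Lewis X sugar structure found on the surface of several embryonic and stem cell types. All cells carried the same cross and received no agent besides the sort, so the groups, with replicate numbers 1 to 5 in each, are 5 fractions that carry SSEA-1 and 5 that the beads left behind. The series title calls the source a cell line, and the series text calls the replicates biological without saying whether they were separate cultures. If they were not, the p-values measure only the spread between these samples. Total RNA was labelled and read on 1 Affymetrix porcine array per fraction, and the number of arrays limits the precision.

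All arrays correlated with each other at 0.987 or more across probe sets. Of the fibroblast markers, 8 of 10 were measured, and all 8 lay above background on every array, COL3A1 dimly. Signal above background does not by itself settle the cell type. Summed on the linear scale, they came to 4436 to 4964 in the positive fraction and 4598 to 5034 in the negative one, sums carried by the brightest markers. Within the list COL1A2, a collagen gene, rose 2.28-fold in the positive fraction, with an adjusted p of 0.000434 in limma. THY1 was 1.27-fold higher, with an adjusted p of 0.0564 in limma and of 0.0146 with the replicate number as a block. For both genes the fractions did not overlap. DCN, LUM and FN1 read lower, with log2 differences of -0.09, -0.10 and -0.13, and none of the 3 passed. The median log2 difference of the 8 fibroblast markers was 0.04. Of 5 measured haematopoietic markers none was above background on every array, and PTPRC, AIF1, ITGAM and CD3E had means at or below it. Their sum was 6.33 to 6.73 against 5.87 to 6.46. Endothelial CDH5, KDR and TEK also had means at or below background, while the epithelial gene KRT8 and the muscle genes DES and ACTC1 were present. EPCAM averaged 0.44 on the log2 scale in the positive and 0.20 in the negative fraction, on either side of the background level of 0.352. Epithelial sums were 35.7 to 92.4 in positive and 35.5 to 105 in negative arrays, and muscle sums 156 to 263 and 102 to 227. KRT8 carries the epithelial sum. The median log2 difference of the 6 epithelial markers was 0.21. EPCAM, CDH1, KRT19 and CLDN4 read higher in the positive fraction by 0.25, 0.18, 0.40 and 0.24, while KRT8 and KRT18 differed by -0.05 and -0.09. CDH1, which averaged 0.53 and 0.35, was also near background. None of the 6 passed in limma, and KRT19 passed with the block, at an adjusted p of 0.0272. Endothelial sums were 5.97 to 6.95 and 6.42 to 6.68, and the linear signal of SOX10, the only neural marker measured, was 1.45 to 2.09 and 1.60 to 1.99. The part of such cells in the results was not tested.

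Of the proteasome genes, 2 of the 5 base ATPases and a chaperone of core assembly fell in the positive fraction. The ATPase genes PSMC6 and PSMC2 fell 1.47-fold and 1.30-fold, and the core assembly chaperone PSMG3 fell 1.43-fold. These were the 3 of 41 members that passed the threshold in limma, an adjusted p under 0.05 over all 24123 probe sets, and none rose. This fit left out the pairing of fractions by replicate number, which the replicate block below takes in. Over all 6765 genes 4.18% were called lower and 3.21% higher. In a bulk fraction, fewer cells expressing a gene and less RNA per cell cannot be told apart. At an unadjusted p under 0.05, 9 members were lower and none higher, where 13.5% of all genes were lower and 10.3% higher. With the replicate number as a block, 6 members fell and none rose, and 8.62% of all genes were then lower and 5.65% higher. The 3 added were PSMC5, PSMD2 and PAAF1. Counted in either direction, members were called about as often as all genes. The shares were 7.32% and 7.39% in limma, and 14.6% and 14.3% with the block. At an unadjusted p under 0.05 in limma they were 22% and 23.8%.

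Most differences were small. The log2 difference, positive minus negative, had a median of -0.07 over the 41 members and of -0.01 over all genes. It was below 0 for 33 of 41 members, or 80.5%, and for 52.4% of all genes. The values ran from -0.56 for PSMC6 to 0.12 for PSMD11. Without negative replicate 4 the median over members was -0.04. Without single arrays the count of members below 0 ran from 27, without positive replicate 2, to 36. Many members vary together, as described further on, so 1 array can move several of them. The 5 values of the positive fraction lay wholly below those of the negative fraction for PSMC6, PSMC2 and PSMD2, and wholly above for no member, while this held for 4.55% of all genes below and 3.96% above.

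**Figure D1:**
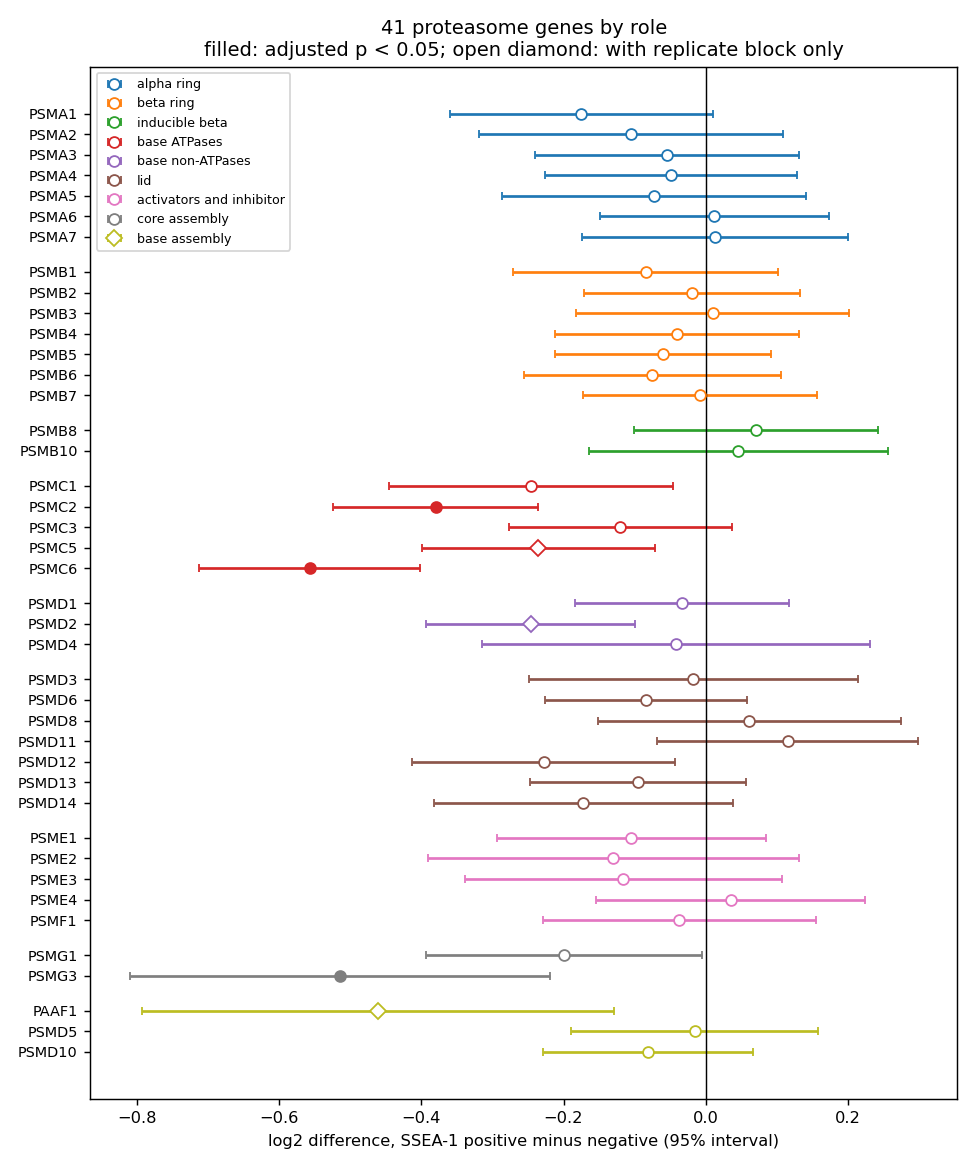
Log2 difference of each of the 41 proteasome genes, SSEA-1 positive minus negative (horizontal axis), grouped and coloured by role, with 95% intervals from limma, n = 5 arrays each. Filled points passed an adjusted p of 0.05 and open diamonds passed with the replicate block alone. PSMC6, PSMC2 and PSMG3 are filled, and the 14 core subunits lie between -0.18 and 0.01.

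The alpha ring gates the core and is the docking surface for the regulatory particle. Of its 7 measured subunits 5 read lower and 2 higher, with a median log2 difference of -0.05, and none passed. PSMA1 had the smallest p. Its log2 signals in positive replicates 1 to 5 were 6.74, 6.61, 6.87, 6.86 and 6.84, and in the negative ones 6.89, 6.77, 6.92, 7.17 and 7.04. Every positive array was below its same-numbered negative array, but the fractions overlapped. The log2 difference was -0.18 ± 0.09 (SE), with an adjusted p of 0.281 in limma.

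PSMA7 was the brightest member, with 8.96, 8.60, 8.81, 8.86 and 8.81 in positive replicates 1 to 5 and 8.83, 8.60, 8.74, 8.98 and 8.83 in negative ones. The fractions lay on top of each other, and the 95% interval of the log2 difference ran from -0.17 to 0.20. For PSMA6 it ran from -0.15 to 0.17, around means of 7.50 ± 0.09 and 7.49 ± 0.11 (SD, n = 5 each). PSMA2, PSMA3, PSMA4 and PSMA5 differed by -0.11, -0.05, -0.05 and -0.07 on the log2 scale.

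The beta ring holds the proteolytic subunits PSMB5, PSMB6 and PSMB7. Their log2 differences were -0.06, -0.07 and -0.01. PSMB5 read 7.22 ± 0.08 in positive and 7.28 ± 0.09 in negative arrays (SD, n = 5 each), and its 95% interval reached from -0.21 to 0.09. Of all 7 beta subunits 6 read lower and 1 higher, with a median log2 difference of -0.04, and none passed.

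PSMB1, a structural beta subunit, had the smallest p of the ring. It read 7.83, 7.68, 7.84, 7.80 and 7.75 in positive replicates 1 to 5 and 7.83, 7.62, 7.83, 8.11 and 7.93 in negative ones. Only replicates 4 and 5 were lower in the positive fraction, and the log2 difference of -0.08 ± 0.09 (SE) had an adjusted p of 0.667 in limma. PSMB2, PSMB3 and PSMB4 differed by -0.02, 0.01 and -0.04. Over the 14 core subunits, no 95% interval reached below -0.36 or above 0.20.

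Interferon-inducible beta subunits replace the constitutive proteolytic ones in the immunoproteasome. PSMB8, which takes the place of PSMB5, was the dimmest member, with log2 signals of 1.45, 1.46, 1.27, 1.65 and 1.46 in positive and 1.50, 1.41, 1.24, 1.42 and 1.37 in negative replicates 1 to 5. All of these lay above the background level of 0.352 but low on the scale. The fractions overlapped, with a log2 difference of 0.07 ± 0.08 (SE) and an adjusted p of 0.701 in limma. PSMB10, the counterpart of PSMB7, read 3.66 ± 0.09 and 3.61 ± 0.21 (SD, n = 5 each), a log2 difference of 0.05.

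The base ATPases form the ring that unfolds substrates. All 5 measured members read lower in the positive fraction, in all 5 replicate pairs, with a median log2 difference of -0.25. Of the 5, 2 fell in limma and 3 with the replicate block. PSMC6 gave the largest difference of all members. Its log2 signals were 7.28, 7.16, 7.23, 7.27 and 7.26 in positive replicates 1 to 5 and 7.79, 7.62, 7.76, 7.86 and 7.96 in negative ones. The highest positive array lay well under the lowest negative one, and the positive arrays were the more tightly grouped. PSMC6 fell by 0.56 ± 0.07 on the log2 scale (SE), with an adjusted p of 0.00105 in limma.

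PSMC2 read 6.55, 6.53, 6.59, 6.54 and 6.51 in positive replicates 1 to 5 and 6.88, 6.80, 6.98, 7.07 and 6.90 in negative ones. The fractions did not overlap, with a spread of 0.03 in the positive and 0.10 in the negative fraction (SD). PSMC2 fell by 0.38 ± 0.07 on the log2 scale (SE), with an adjusted p of 0.00621 in limma. The calls of PSMC6 and PSMC2 held without any single array and without both arrays of any replicate.

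PSMC2 had another 2 probe sets. The dimmest of the 3, with log2 signals of 5.26 to 5.39 in positive arrays, also fell, by 0.25 ± 0.07 (SE), with an adjusted p of 0.0449 in limma and of 0.0528 with the replicate block. The middle one read -0.05 ± 0.06 (SE) with an adjusted p of 0.743 in limma, and its 95% interval of -0.18 to 0.08 did not include the value of the brightest probe set. The probe sets of PSMC2 thus disagreed on the size of the difference.

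**Figure D2:**
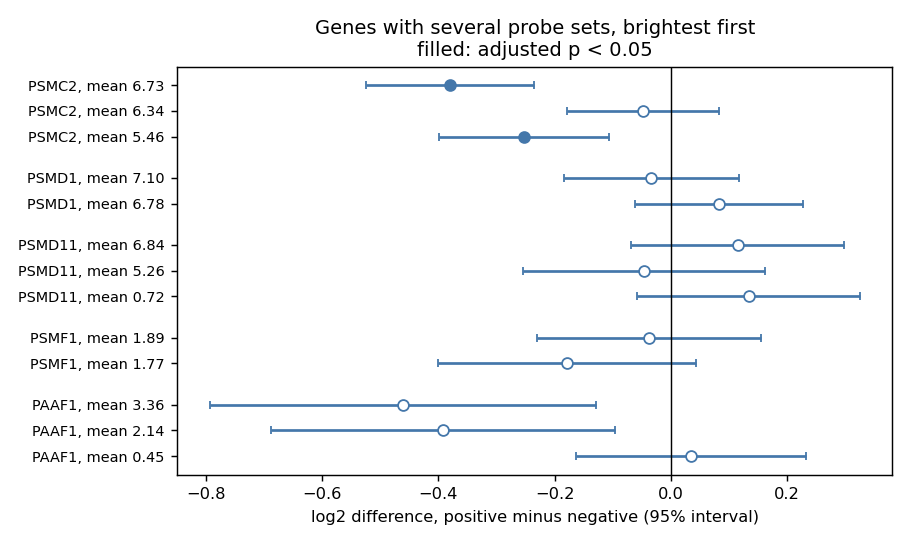
Log2 difference, positive minus negative, with 95% intervals (horizontal axis) for every probe set of the 5 proteasome genes that had several, ordered by mean log2 signal, which is given beside the symbol. Filled points passed an adjusted p of 0.05. Among 3 PSMC2 probe sets, 2 passed, and no probe set of PSMD1, PSMD11, PSMF1 or PAAF1 passed without the block.

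PSMC5 read 6.54, 6.27, 6.43, 6.44 and 6.43 in positive replicates 1 to 5 and 6.78, 6.51, 6.60, 6.76 and 6.64 in negative ones. Each positive array was below its partner, while the fractions overlapped in positive replicate 1. The log2 difference of -0.24 ± 0.08 (SE) had an adjusted p of 0.0885 in limma and of 0.0380 with the replicate block. PSMC1, whose product takes part in opening the gate of the core, differed by -0.25 ± 0.09 (SE), with an adjusted p of 0.149 in limma and of 0.0502 with the block. PSMC3 showed the smallest difference of the ring, -0.12 ± 0.07 (SE).

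Among the other base subunits PSMD1 and PSMD2 are the large scaffolds, and PSMD4 is a ubiquitin receptor. PSMD2 read 6.51, 6.38, 6.44, 6.63 and 6.52 in positive replicates 1 to 5 and 6.81, 6.68, 6.77, 6.78 and 6.67 in negative ones. Its fractions did not overlap, though positive replicate 4 came close to negative replicate 5. The log2 difference was -0.25 ± 0.07 (SE), and its adjusted p lay at the threshold, at 0.0502 in limma, and at 0.0389 with the replicate block. Without single arrays it was 0.0280 to 0.115, under the threshold only without positive replicate 4, and without both arrays of a replicate it was 0.0504 to 0.202.

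PSMD1, the other scaffold, differed by -0.03 ± 0.07 (SE), with -0.06 to -0.02 in the replicate pairs, and its second probe set gave 0.08 ± 0.07 (SE). PSMD4 varied most between replicates among the base subunits, with pair differences from -0.33 to 0.60 around a mean difference of -0.04. The difference between the 2 scaffolds was not tested.

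**Figure D3:**
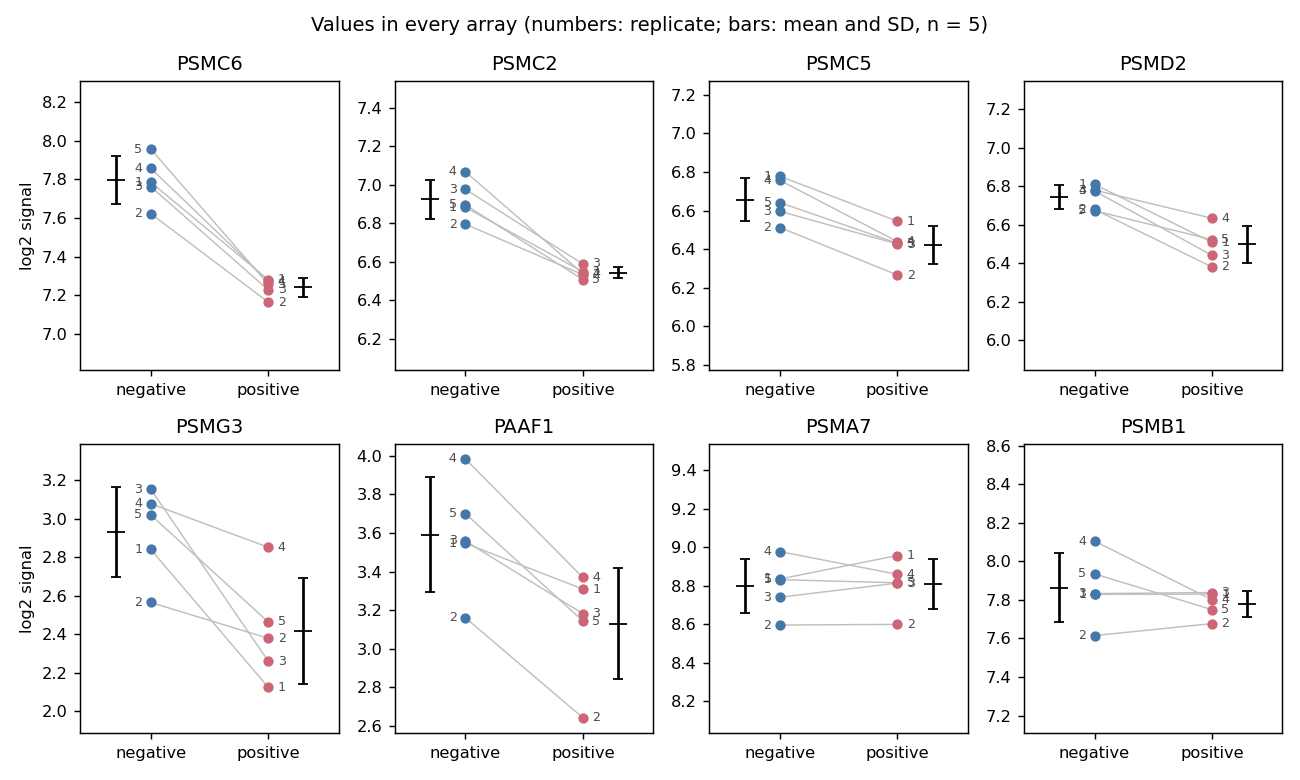
Log2 signal (vertical axis, the same span in each panel) of 8 proteasome genes in the negative and positive fractions. Points are arrays with their replicate number, grey lines join equal numbers, and black bars give mean and SD, n = 5. PSMC6, PSMC2 and PSMD2 show fractions that do not overlap, while the core subunits PSMA7 and PSMB1 overlap widely.

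The lid deubiquitinates substrates, and PSMD14 is its deubiquitinating enzyme. Of 7 measured lid subunits 5 read lower and 2 higher, with a median log2 difference of -0.08, and none passed with or without the replicate block. PSMD12, a scaffold subunit, had the smallest p. It read 5.31, 5.34, 5.62, 5.47 and 5.48 in positive replicates 1 to 5 and 5.65, 5.45, 5.73, 5.71 and 5.83 in negative ones. All positive arrays were below their partners, and the fractions overlapped. The log2 difference was -0.23 ± 0.09 (SE), with an adjusted p of 0.150 in limma and of 0.0629 with the block.

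PSMD14 differed by -0.17 ± 0.10 (SE) and was lower in 5 of 5 pairs. PSMD11, another scaffold of the lid, was the one member higher in all 5 pairs, by 0.01 to 0.39, with a log2 difference of 0.12 ± 0.09 (SE) and an adjusted p of 0.516 in limma. Its second probe set read -0.05 and the dimmest 0.13. PSMD3, PSMD6, PSMD8 and PSMD13 differed by -0.02, -0.08, 0.06 and -0.10.

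Activators other than the regulatory particle can also cap the core. PSME1 and PSME2 form an interferon-inducible ring, PSME3 a nuclear one, PSME4 acts as one large chain, and PSMF1 inhibits the core in vitro. None of the 5 passed, with 4 lower, 1 higher and a median log2 difference of -0.10. The poly-A level of the arrays, described further on, turned that median to 0.14 as a covariate and to 0.15 with the replicate block beside it. PSME1 read 5.93, 6.04, 5.69, 6.01 and 5.89 in positive replicates 1 to 5 and 6.02, 6.14, 5.85, 5.91 and 6.17 in negative ones. Replicate 4 ran against the other replicates, and the log2 difference of -0.10 ± 0.09 (SE) had an adjusted p of 0.578 in limma. PSME2, PSME3, PSME4 and PSMF1 differed by -0.13, -0.12, 0.04 and -0.04, and the dimmer PSMF1 probe set by -0.18 ± 0.10 (SE).

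Of the factors that build the core, PSMG1 and PSMG3 were measured, chaperones of the alpha ring. PSMG3 read 2.13, 2.38, 2.26, 2.85 and 2.46 in positive replicates 1 to 5 and 2.84, 2.57, 3.15, 3.08 and 3.02 in negative ones. Positive replicate 4 stood above negative replicates 1 and 2, so the fractions overlapped, while every pair was lower, by 0.19 to 0.89 in size. PSMG3 fell by 0.51 ± 0.14 on the log2 scale (SE), with an adjusted p of 0.0437 in limma.

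That call was the least firm of the 3. Leaving out any one of positive replicates 1, 2, 3 and 5 or of negative replicates 1, 3, 4 and 5 ended it, with adjusted p-values of 0.0708 to 0.112 in limma. It also ended under repeated quantile normalization, at 0.0723, and cyclic loess, at 0.0619. PSMG1 differed by -0.20 ± 0.09 (SE) and was lower in 5 of 5 pairs, with an adjusted p of 0.237 in limma.

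Among chaperones of the ATPase ring, PAAF1 read 3.31, 2.64, 3.18, 3.37 and 3.14 in positive replicates 1 to 5 and 3.55, 3.16, 3.56, 3.98 and 3.70 in negative ones. Replicate 2 was the lowest of both fractions, replicate 4 the highest of both, and each positive array was below its partner. PAAF1 differed by -0.46 ± 0.15 (SE), with an adjusted p of 0.101 in limma, and of 0.00388 with the replicate block. Without single arrays the adjusted p was 0.0295 to 0.202, under the threshold only without negative replicate 2, and without both arrays of a replicate it was 0.0346 to 0.299, under it only for replicate 2. Its second probe set gave -0.39 ± 0.14 (SE), with an adjusted p of 0.119 in limma and of 0.0299 with the block, and the one closest to background gave 0.03. PSMD5 and PSMD10, the other ATPase chaperones measured, differed by -0.02 and -0.08.

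The core subunits varied together from array to array within a fraction. Deviations from the fraction means, compared over 10 arrays, correlated between core subunits with a median Pearson r of 0.87 over 91 gene pairs, and the lowest r was 0.41. Over all pairs of the 2004 genes with a mean log2 signal above 5, the median was 0.04. Alpha with beta subunits gave a median of 0.88, core with base ATPases 0.80 and core with lid 0.77. These are descriptions, since all genes share the same arrays, scaling and replicate numbers. The size of this variation was near that of other genes, with a median SD within a fraction of 0.13 for core subunits against 0.12 for genes with a mean above 5.

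Activators and the inhibitor did not follow the core as a group. PSME3 varied with the core subunits at a median r of 0.78, PSME2 at 0.35, PSME4 at -0.03, PSME1 at -0.34 and PSMF1 at -0.73. The inducible subunits PSMB8 and PSMB10 stood at 0.14 and 0.01. Of the base and its chaperones, PAAF1 followed the core at 0.90 and PSMC1 at 0.85, while PSMD4 at 0.19 and PSMD10 at -0.14 did not.

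**Figure D4:**
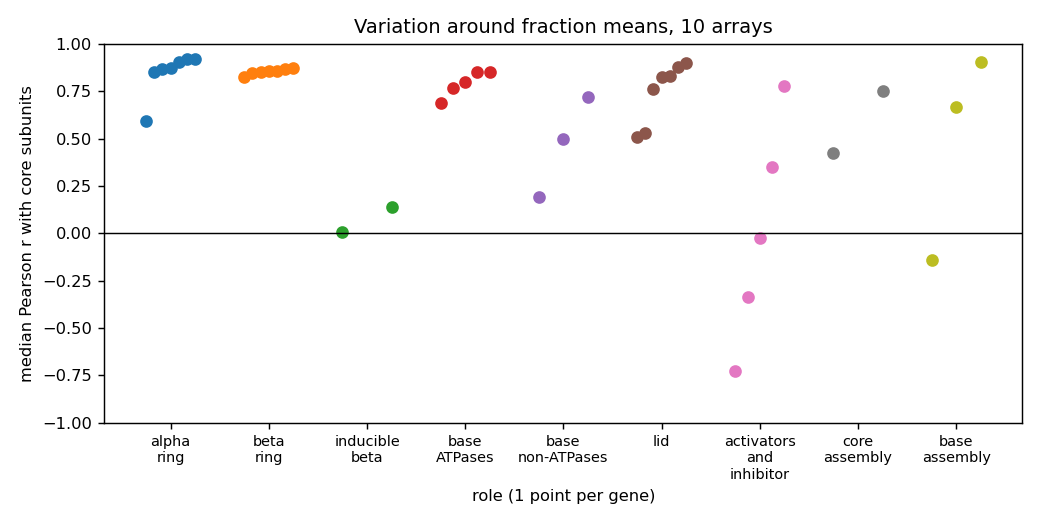
Median Pearson correlation of each proteasome gene with the 14 core subunits (vertical axis), computed from deviations from the fraction means over 10 arrays and grouped by role, 1 point per gene. Base ATPases and most lid subunits sit near the core, whereas the activators and inhibitor spread from -0.73 to 0.78.

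The array by array levels show how the shared variation and the difference between fractions overlay. Relative to each gene's mean over 10 arrays, the core subunits had a median deviation of -0.16 in positive replicate 2 and -0.18 in negative replicate 2. Negative replicate 4 was the highest, at 0.19, and the other 7 arrays lay between -0.02 and 0.09. The base ATPases deviated by -0.27 to -0.09 in the positive arrays and by -0.03 to 0.33 in the negative ones, with replicate 2 again the lowest of each fraction.

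Set against the core on the same array, the ATPases separated the fractions. The mean log2 signal of the 5 ATPases minus that of the 14 core subunits was -0.89, -0.83, -0.85, -0.90 and -0.92 in positive replicates 1 to 5, and -0.62, -0.58, -0.58, -0.66 and -0.66 in negative ones. Levels of different probe sets cannot be compared, so only the change between arrays is meaningful. That change, from -0.62 ± 0.04 to -0.88 ± 0.03 (SD, n = 5 each), was -0.26. This measure was chosen after the values were seen and has no test. The called genes PSMC6 and PSMC2 differed most, by -0.56 and -0.38, and PSMC1, PSMC3 and PSMC5 by -0.25, -0.12 and -0.24. PSMC2 entered through its brightest probe set alone.

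**Figure D5:**
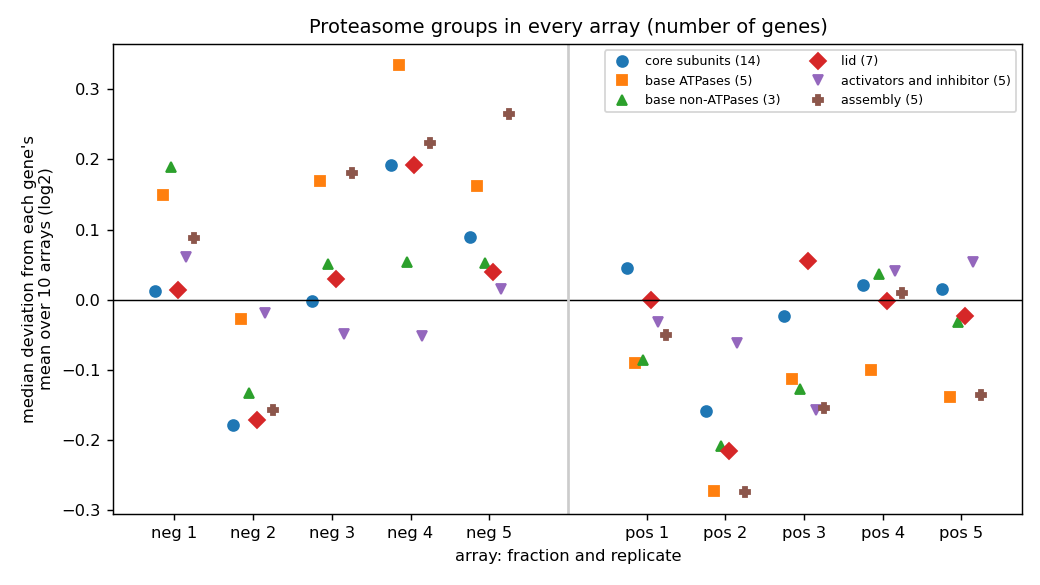
Median deviation of the genes of each proteasome group from their own mean over 10 arrays (vertical axis, log2), for each negative and positive array (horizontal axis). The base ATPases lie between -0.03 and 0.33 in negative arrays and between -0.27 and -0.09 in positive ones, while replicate 2 is low for the core in both fractions.

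Other properties of the arrays moved with the fractions. Poly-A controls, which are spiked into the RNA, stood at -3.45 to -2.66 relative to the hybridisation controls on the log2 scale in the positive and at -4.32 to -3.80 in the negative fraction. With this level as a covariate none of the 41 members passed in limma, and 0.0296% of all genes were called lower. At an unadjusted p under 0.05 in that fit, 6 members, or 14.6%, were lower, and 8.81% of all genes. The log2 differences were then -0.55 ± 0.14 for PSMC6, -0.51 ± 0.12 for PSMC2 and -0.40 ± 0.26 for PSMG3 (SE). With the replicate block beside the covariate no member passed in limma, and 0.0148% of all genes were called lower. There, 3 members, or 7.32%, were lower at an unadjusted p under 0.05, near the 6.68% of all genes. PSMC6 and PSMC2 read -0.59 ± 0.22 and -0.51 ± 0.22 in that fit, PSMD2 -0.09 ± 0.21 and PSMG3 0.00 ± 0.30 (SE). The log2 difference turned sign for 8 of the 41 members with the covariate and for 10 with the block as well. PSME1, PSME2 and PSMD4 turned from lower to higher, at 0.23 ± 0.13, 0.14 ± 0.22 and 0.16 ± 0.24 with the covariate (SE). None of the 3 passed. PSMA6, PSMA7, PSMB3 and PSMD8 turned from higher to lower, at -0.11, -0.12, -0.08 and -0.14 with the covariate. The median log2 difference with the covariate was -0.14 over the core subunits and -0.42 over the base ATPases. Since the levels of the fractions did not overlap, these values are extrapolated.

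Genes of dividing cells were lower too. All 14 measured G2 and M phase genes read lower in the positive fraction, with a median log2 difference of -0.63, and 3 fell in limma and 12 with the replicate block. Their summed linear signal was 334 to 607 in positive and 448 to 1031 in negative arrays, and none was at background. The part of the spike-in level and of the cycling genes in the differences of the proteasome genes was not tested.

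Genes that work with the proteasome under other names gave no call in limma without the block. Of 55 listed symbols 20 were measured, and none passed in limma, with 1, UBXN4, lower with the replicate block. SEM1, a small lid subunit, and UBE3A, a ubiquitin ligase that binds the proteasome, differed by 0.07 and 0.04. The ubiquitin genes UBB and RPS27A differed by -0.04 and -0.02, and the VCP unfoldase by 0.03. UBXN4, an ER-bound partner of VCP, differed by -0.22 ± 0.07 (SE), with an adjusted p of 0.0902 in limma and of 0.0481 with the block. NSFL1C, listed with VCP, differed by -0.27 ± 0.08 (SE), with an adjusted p of 0.0627 in limma and of 0.0515 with the block. FAF2 and DERL1, from the same list, read higher by 0.17 and 0.18, and neither passed. Of the 7 measured genes of that list 4 read lower, with a median log2 difference of -0.04.

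Among 5 antigen processing and interferon genes, the partners of the immunoproteasome, none passed. TAPBP, which loads peptides onto MHC class I, differed by 0.30 ± 0.11 (SE) with an adjusted p of 0.132 in limma, TAP1, a peptide transporter, by 0.17, and B2M by 0.00. NFYB, part of a factor that binds CCAAT boxes, differed by -0.30 ± 0.11 (SE) with an adjusted p of 0.119 in limma. The median log2 difference over the 20 genes was -0.01.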

How the data were processed

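RNA of 10 sorted fractions, 5 with and 5 without SSEA-1, was read on as many arrays. RMA is the tool named in the submitters' processing notes, and the authors deposited its output, log2 signal for each probe set. For its version and background step, the sources used here give nothing. Between 4.55% and 8.16% of each array lay below 0, so differences of dim probe sets are the least certain. No further normalization was applied.

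Of 24123 probe sets 10099 had 1 symbol in the platform annotation and 198 had several. Of the 10099, 9989 matched a RefSeq gene table of Sscrofa11.1 by Entrez identifier and no symbol changed. No sequences or promoter motifs were used here. Fractions were compared with lmFit and eBayes of limma 3.58.1 (R 4.3.3) on all probe sets, 188 controls included, with Benjamini-Hochberg adjustment and a threshold of 0.05. Background was the 95th percentile of 23 controls for absent sequences.

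Members and lists were chosen with earlier results of these data known. Values in every array are given for members past the threshold with or without the replicate block, for the member with the smallest p in each role group with no member past the threshold, and for the brightest and dimmest member. Other genes of the pathway are named from the lists, UBXN4 for its call and the rest, TAPBP and NFYB among them, after their values were seen.

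Replicate numbers were taken as pairs in the replicate block and the pair differences, since the 5 sorts described for the series yielded 10 fractions. The main fit, given as limma without the block, left this pairing out. Deviations of same-numbered arrays correlated at 0.212, 0.580, 0.353, 0.122 and 0.235 for replicates 1 to 5, though positive replicate 4 and negative replicates 4 and 5 correlated best with an array of another number. The alternatives were the replicate block, fixed or random, the poly-A covariate with and without it, other scalings, a filter on level, other eBayes settings, array weights, no controls, gene means, an exact rank-sum test and leave-outs.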

Additional observations from a re-analysis of the deposited data

Results flagged for a closer look

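In the positive fraction, replicate 2 stood apart from the other 4 arrays for 5 of the 41 proteasome genes, by a gap that was large against the range of the 5 values. PSMA2 read 7.78 there against 7.99 to 8.07 in the others, and PSMA6 read 7.34 against 7.52 to 7.55. PSMB6 read 7.50 against 7.71 to 7.77. Among lid subunits, PSMD6 read 6.61 against 6.69 to 6.71 and PSMD8 read 7.16 against 7.48 to 7.56. With 82 groups of 5 values examined, chance alone flags about 1 in 20 groups, and the genes share their arrays. None of these 5 genes passed in limma.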

How the results depend on the processing

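None of the 41 members rose under any of the alternatives. The count of members lower, 3, was 6 with the replicate block as a fixed effect and 6 as a random one. It was 0 with the poly-A covariate, 0 with the block beside it and 0 in the exact rank-sum test. In the rank-sum test 6 members were lower at an unadjusted p under 0.05, and no gene of 6765 passed after adjustment. The number of arrays sets a smallest possible p for that test, reached when the fractions do not overlap. The fractions did not overlap for 8.51% of all genes, and even these did not pass. The 0 of the rank-sum test therefore cannot count against any member. The count was 2 to 4 without single arrays and 2 to 4 without both arrays of a replicate. PSMC6 and PSMC2 passed in all settings but the covariate fits and the rank-sum test. PSMD2 also passed with the filter on level, with trend and robust settings, with array weights and with gene means. The median log2 difference of members was -0.17 with the covariate and -0.14 with the block beside it, and -0.10 to -0.04 without single arrays. The causes were not tested. Low signals, as for PSMB8 and PSMF1, limit what can be seen for those genes.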
